A study of Mus musculus with 42 samples.

Results

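The accessory subunits Scn2b, Scn3b and Scn4b of the voltage-gated sodium channel, and the FGF homologous factors Fgf11, Fgf12, Fgf13 and Fgf14, were followed through all arrays of a mouse series on sensory ganglia. Every probe set (a group of short oligonucleotides that reads a transcript) annotated to exactly 1 of these 7 gene symbols was taken. That gave 17 of the 45101 probe sets on Mouse430_2 arrays, which cover all 7 genes, and 5 of the 12488 on MG-U74Av2 arrays, which cover the 4 FGF homologous factors (7 of 18194 and 4 of 8252 genes with a probe set of 1 symbol), so the beta subunits were read on 1 array type only. The series set nodose ganglion (NG), which holds the cell bodies of vagal visceral afferents, against dorsal root ganglion (DRG), which holds those of spinal afferents. All mice were BALB/c, an inbred strain, kept in standard housing with no treatment named. The groups were captured NG neurons (n = 11) and captured DRG neurons (n = 9) on Mouse430_2, captured NG neurons (n = 5) and captured DRG neurons (n = 5) on MG-U74Av2, and whole NG (n = 7) and whole DRG (n = 5) on MG-U74Av2. A captured sample was a pool of about 150 neurons collected by laser microdissection. About 12 µg of RNA went into labelling. The labels speak of amplified RNA in the captured MG-U74Av2 groups and of total RNA elsewhere. For the captured Mouse430_2 groups that wording may still cover amplified RNA, because the step from such small pools to this amount is left unexplained. The results on Mouse430_2 are therefore not to be read as coming from unamplified RNA. How visceral neurons were recognised, which spinal levels the DRG came from, and the age and sex of the mice are not given in the sources used here. Nothing in the labels ties a sample to a separate animal, so a p-value speaks to the scatter among the samples given, and part of that scatter may be technical.

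Voltage-gated sodium channels carry the rising phase of the action potential through a large alpha subunit that forms the pore. Beta subunits are small membrane proteins with an extracellular immunoglobulin domain; they bind the alpha subunit, change its gating and its number at the surface, and act as cell adhesion molecules. Scn2b and Scn4b encode the subunits that are linked to the alpha subunit by a disulfide bond, whereas Scn3b encodes one that binds without it. The beta-4 protein is best known for a cytoplasmic tail that can block the open pore and give a resurgent current on repolarisation, which has been described in large DRG neurons. FGF homologous factors resemble fibroblast growth factors but stay inside the cell, where they bind the cytoplasmic C-terminus of the alpha subunit and set its inactivation and its place at the axon initial segment.

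In the captured neurons on Mouse430_2, the 3 beta subunit genes did not differ in the same direction between the ganglia. Scn4b was 14.1-fold lower in NG neurons than in DRG neurons. Scn3b was 2.58-fold higher in NG neurons, and the leading Scn2b probe set was 1.62-fold higher, while the other 2 Scn2b probe sets gave a fold of 2.62 and an uncalled log2 difference of -0.03. Among the FGF homologous factors, the leading Fgf13 probe set was 1.37-fold lower in NG neurons, and Fgf14 stayed near the background of the array in every group. The leading Fgf12 probe set and another that was tested were not called (log2 differences -0.38 and -0.17). A dim Fgf12 probe set that failed the filter on low signal differed by -1.32 on the log2 scale when no filter was set.

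Scn2b and Scn4b lie side by side on mouse chromosome 9, on the same strand, with transcription starts 20.7 kb apart, and their captured-neuron signals differed in opposite directions. Their promoter windows are therefore shown (RefSeq, build GRCm38.p6; 250 bases before to 50 after the start, written 5′ to 3′ on the plus strand). The Scn2b window is chr9:45117626-45117925 and the Scn4b window is chr9:45138374-45138673. Capitals mark motif matches on either strand, which are E-boxes and a RUNX core in Scn2b and a CCAAT box in Scn4b.
Scn2b: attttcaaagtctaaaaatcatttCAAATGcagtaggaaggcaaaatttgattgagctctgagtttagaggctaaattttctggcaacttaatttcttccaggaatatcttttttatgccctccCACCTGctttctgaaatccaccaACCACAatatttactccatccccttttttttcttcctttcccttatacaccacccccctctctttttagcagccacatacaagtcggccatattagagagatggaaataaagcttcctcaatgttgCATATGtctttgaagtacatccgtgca
Scn4b: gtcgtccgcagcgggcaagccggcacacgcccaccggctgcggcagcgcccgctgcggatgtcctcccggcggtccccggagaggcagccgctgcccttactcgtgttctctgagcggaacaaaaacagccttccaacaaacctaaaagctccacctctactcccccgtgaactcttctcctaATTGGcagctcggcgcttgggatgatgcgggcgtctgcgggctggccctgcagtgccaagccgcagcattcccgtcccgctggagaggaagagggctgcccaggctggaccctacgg
The Scn2b window was 38.3% G or C and that of Scn4b 66.3%, against a median of 53% over all 32544 promoter windows of the table. Searched on both strands were a TATA box (TATAAA, present in 13.6% of all windows), a GC box (GGGCGG, 35.9%), a CCAAT box (CCAAT, 37.4%), an E-box (CANNTG, 72.3%), a RUNX core (TGTGGT, 16.7%) and a homeodomain core (TAATTA, 5.29%). The Scn2b window held 3 E-boxes and 1 RUNX core, and none of the other letters. The Scn4b window held 1 CCAAT box, and none of the others. A match is a description of the letters in this window and not a binding site. Of the 7 genes, 6 had an entry in the table; Fgf12 and Fgf13 had 4 starts each, Fgf11 and Fgf14 had 1 each, and Scn3b is named only.

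Signals below were scaled so that each array had the same trimmed mean within its comparison, and differences are NG minus DRG of log2(signal + pseudocount), fitted with limma over all probe sets tested and adjusted by Benjamini-Hochberg, with a call at adjusted p below 0.05. Tests were limited to probe sets above the 40th percentile of an array (the filter) on a minimum number of arrays, equal to the size of the smaller group. In captured neurons on Mouse430_2, 22.2% of the 28107 probe sets tested were called, 9.72% higher and 12.5% lower in NG. Of the 17 member probe sets, 10 from 6 genes were tested, and 7 of those were called, 4 higher and 3 lower in NG. The median log2 difference of these 10 was -0.10, beside -0.05 over all probe sets tested. The values of the NG and DRG arrays did not overlap at all for 3 of the 10, against 3.84% of all probe sets tested. A member that passed the filter through its brighter group had to differ, so these shares describe only the members that were tested.

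**Figure D1:**
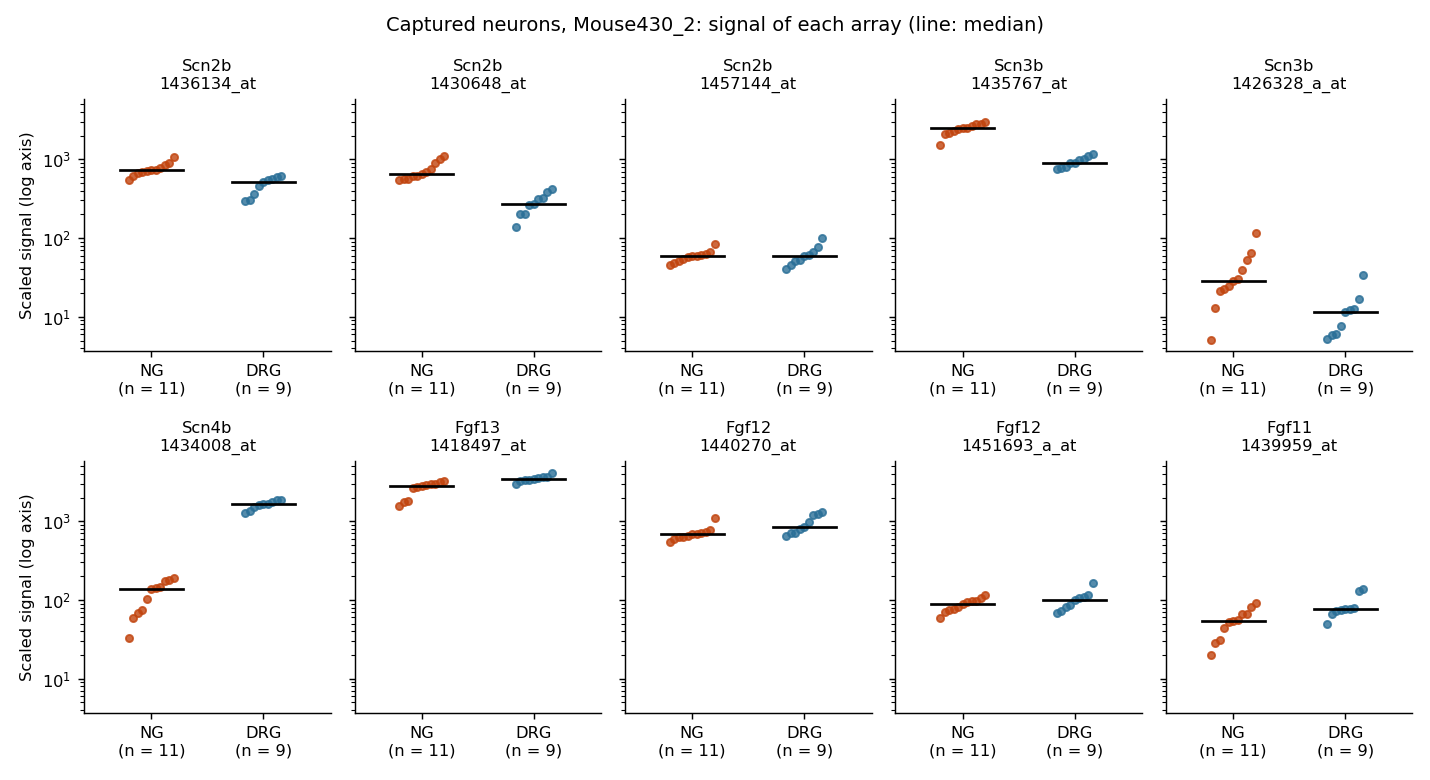
Scaled signal (log axis) of the 10 tested member probe sets in captured neurons on Mouse430_2, with 1 point per array, 11 NG arrays to the left of 9 DRG arrays and a line at each median. Scn4b (119 ± 53.5 in NG, 1613 ± 203 in DRG), Scn3b 1435767_at and Scn2b 1430648_at show no overlap between the ganglia, and the other 7 overlap.

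Scn4b had the largest difference of the members. Its probe set, 1434008_at, ran from 33.0 to 188 with a median of 140 in the 11 NG samples, against 1277 to 1861 with a median of 1637 in the 9 DRG samples. Every DRG array was thus brighter than any NG array, and all 11 NG arrays still lay above the filter. The mean was 119 ± 53.5 in NG neurons and 1613 ± 203 in DRG neurons (SD, n = 11 and 9). The log2 difference was -3.82 (SE 0.228, limma adjusted p = 9.07e-13), a signal 14.1-fold lower in NG with a 95% interval of 10.2 to 19.5. Ranked from the lowest, that difference was number 27 among the 28107 tested.

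Scn3b, known from small sensory neurons of rat DRG, went the other way. The leading probe set, 1435767_at, ran from 1541 to 3005 with a median of 2475 in NG neurons, against 748 to 1155 with a median of 909 in DRG neurons. The lowest NG array was above the highest DRG array. Means were 2425 ± 401 in NG and 932 ± 144 in DRG (SD, n = 11 and 9), a log2 difference of 1.37 (SE 0.113, limma adjusted p = 4.85e-10) and a fold of 2.58 (95% interval 2.198 to 3.03). The other Scn3b probe set, 1426328_a_at, was dim. It ran from 5.08 to 115 with a median of 28.7 in NG and from 5.29 to 34.2 with a median of 11.7 in DRG, so the groups overlapped. It lay above the filter on 8 of 11 NG arrays and 1 of 9 DRG arrays, the minimum that allows a test. The fit gave a log2 difference of 1.03 (SE 0.316, limma adjusted p = 0.0185), but a probe set that is tested through its brighter group had to differ, so this value is a description and no support for the leading probe set. It could be tested in 23 of 31 alternatives.

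Scn2b, the subunit that promotes the surface density of channels in axons, was read by 3 probe sets that did not give 1 answer. Probe set 1430648_at ran from 548 to 1104 with a median of 658 in NG neurons and from 139 to 420 with a median of 267 in DRG neurons, with no overlap. Its means were 729 ± 191 in NG and 280 ± 90.4 in DRG (SD, n = 11 and 9), and its log2 difference was 1.39 (SE 0.178, limma adjusted p = 1.19e-06), a fold of 2.62 (95% interval 2.03 to 3.37). The probe set with the highest mean signal, 1436134_at, ran from 552 to 1080 with a median of 734 in NG and from 291 to 623 with a median of 516 in DRG. Those groups overlapped, and the log2 difference was 0.70 (SE 0.15, limma adjusted p = 0.000993), a fold of 1.62 (95% interval 1.31 to 2.004). The dimmest of the 3, 1457144_at, averaged 59.2 ± 10.5 in NG and 61.5 ± 17.8 in DRG, and its difference was not called (log2 difference -0.03, 95% interval -0.35 to 0.30). Hence 2 Scn2b probe sets were higher in NG neurons by different amounts, and the third overlapped throughout.

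**Figure D2:**
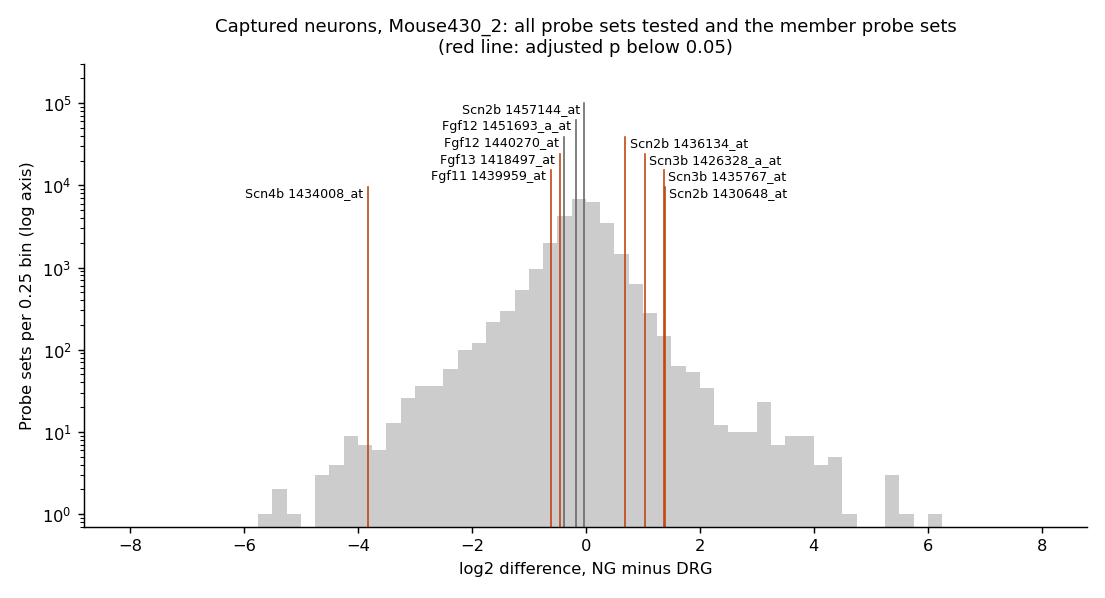
Number of probe sets (log axis) per bin of log2 difference, NG minus DRG, for all 28107 probe sets tested in captured neurons on Mouse430_2, with a vertical line at each of the 10 tested member probe sets. Scn4b, at -3.82, stands in the far lower tail, Scn3b 1435767_at and Scn2b 1430648_at lie at 1.37 and 1.39, and the FGF homologous factors lie within the bulk below 0.

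Fgf13 encodes the factor known in mouse DRG for binding the channel Nav1.7 and for a role in heat sensing. Its leading probe set, 1418497_at, was bright in both ganglia, from 1549 to 3218 with a median of 2788 in NG neurons and from 2960 to 4112 with a median of 3440 in DRG neurons. The upper NG arrays reached into the range of the DRG arrays. Means were 2592 ± 593 in NG and 3478 ± 323 in DRG (SD, n = 11 and 9), a log2 difference of -0.46 (SE 0.123, limma adjusted p = 0.00716), 1.37-fold lower in NG (95% interval 1.15 to 1.64). The call rested on part of the samples: among samples whose number also occurs on MG-U74Av2 the difference was -0.15 (limma adjusted p = 0.378, n = 5 and 5), against -0.73 (adjusted p = 0.00812, n = 6 and 4) among the others. It was also lost when arrays were given the same median (-0.31, adjusted p = 0.181). A second Fgf13 probe set, 1418498_at, which comes from the same source transcript, was too dim to be tested, with a mean of 11.0 in NG and 25.6 in DRG.

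Fgf11, a less studied member of the family, was read by 2 probe sets in captured neurons on Mouse430_2. Fgf11 probe set 1439959_at ran from 20.1 to 90.3 with a median of 54.6 in NG and from 48.9 to 136 with a median of 75.8 in DRG. Its groups overlapped, and its log2 difference of -0.62 (SE 0.223) passed the threshold narrowly (limma adjusted p = 0.0478). That call was lost under 23 of 31 other settings or left-out arrays, in which the difference lay between -0.75 and -0.47. The other Fgf11 probe set, 1421793_at, lay under the filter on all 20 arrays. Fgf12 probe set 1440270_at averaged 706 ± 144 in NG and 940 ± 258 in DRG (SD, n = 11 and 9) and was not called (log2 difference -0.38, SE 0.143, limma adjusted p = 0.0537). Quantile normalization put it past the threshold (-0.43, adjusted p = 0.0349), as did leaving out DRG sample 002, 008 or 011 or NG sample 010 (adjusted p 0.0161 to 0.0372). Over all 31 alternatives it ran from -0.52 to -0.23, with limma adjusted p up to 0.341. Fgf12 probe set 1451693_a_at gave -0.17 (95% interval -0.50 to 0.16) and was not called. The remaining Fgf12 probe set, 1436432_at, was dim: it averaged 12.8 ± 7.65 in NG and 43.9 ± 23.6 in DRG, and lay above the filter on 1 of 11 NG arrays and 7 of 9 DRG arrays, 1 array short of a test. With no filter its log2 difference was -1.32 (SE 0.264, limma adjusted p = 0.000644).

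Fgf14, the factor whose mutation causes a spinocerebellar ataxia in people, was read by 4 probe sets on Mouse430_2, none of which passed the filter. The brightest, 1435747_at, averaged 18.2 ± 12.4 in NG and 19.4 ± 6.12 in DRG (SD, n = 11 and 9), where the filter stood between 16.8 and 28.6 on the 20 arrays. Probe set 1449958_a_at averaged 17.4 in NG and 16.8 in DRG, and the remaining pair did not exceed 17.3 on any array. With no filter, the 4 differences lay between -0.17 and 0.09 and none was called. Detection calls were not used here, and a signal this low can be background; levels of different probe sets are not set against each other.

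**Figure D3:**
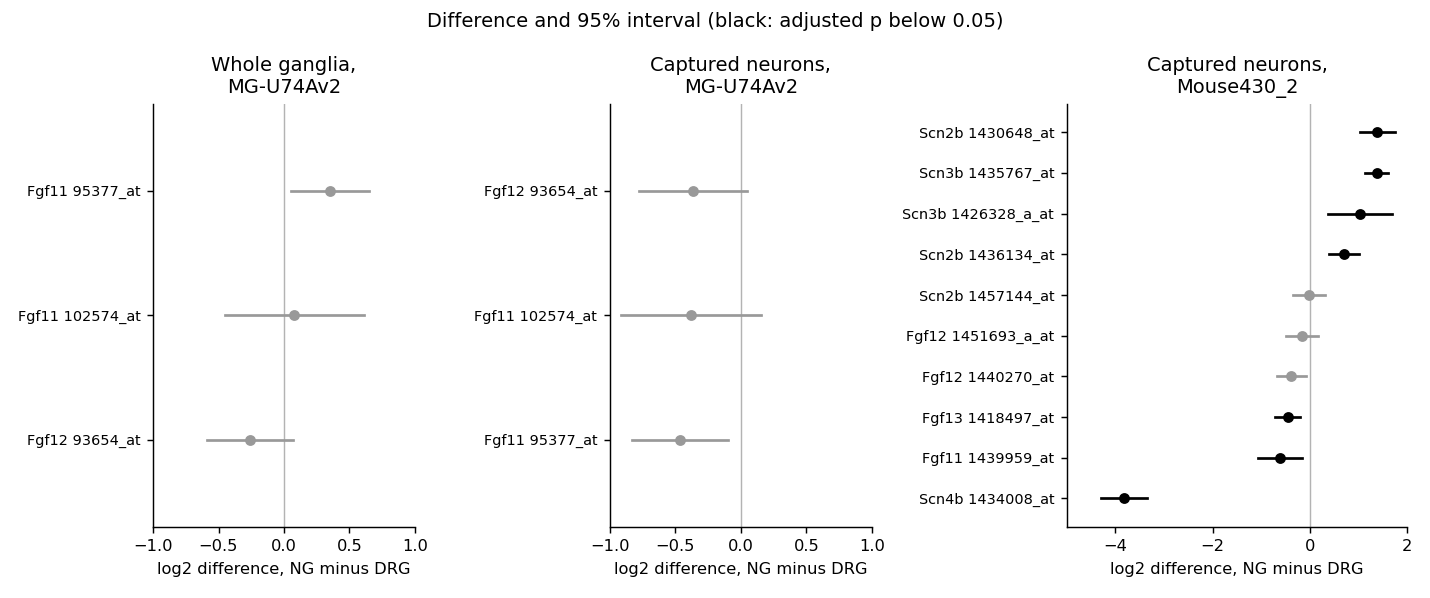
log2 difference, NG minus DRG, with its 95% interval for each tested member probe set in whole ganglia and in captured neurons on MG-U74Av2 and in captured neurons on Mouse430_2 (black, adjusted p below 0.05; grey, not called; the third panel has a wider axis). The 7 called probe sets are all in the Mouse430_2 panel, from Scn4b at -3.82 to Scn2b 1430648_at at 1.39.

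On MG-U74Av2, Fgf11 and Fgf12 gave the 3 tested member probe sets, and none of them was called between the ganglia. In captured neurons 21.8% of 7583 probe sets were called, and in whole ganglia 35.4% of 7698. In each comparison 1 of the 3 had an unadjusted limma p under 0.05, the bright Fgf11 probe set 95377_at in both. Over all probe sets, 2581 of 7583 in captured neurons and 3357 of 7698 in whole ganglia had such a p, so this count does not stand out. The signals that follow are on a scale shared by all 22 arrays of this type. Captured NG neurons gave 276, 389, 267, 215 and 267 for Fgf11 95377_at (samples 003, 007, 008, 010 and 014), against 392, 411, 297, 472 and 389 in captured DRG neurons (samples 003, 006, 008, 010 and 014). The highest NG value and the lowest DRG value crossed. Captured NG neurons averaged 283 ± 64 and captured DRG neurons 392 ± 62.9 (SD, n = 5 each). The fit of these groups gave a log2 difference of -0.47 (SE 0.171, limma adjusted p = 0.0649), which passed the threshold without NG sample 007 (-0.58, adjusted p = 0.0214), without DRG sample 008 (-0.56, adjusted p = 0.0378), with array weights (adjusted p = 0.0438) and with all 4 groups in 1 fit (adjusted p = 0.0329). Over all 20 alternatives it ran from -0.58 to -0.38, with limma adjusted p up to 0.16.

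In whole ganglia the same probe set pointed the other way. Whole NG ran from 142 to 270 with a median of 204, and whole DRG gave 140, 145, 177, 173 and 133. The groups overlapped, with means of 201 ± 41.0 in whole NG and 153 ± 20 in whole DRG (SD, n = 7 and 5). The log2 difference was 0.35 (SE 0.14, limma adjusted p = 0.0598), and it passed the threshold without NG sample 020 (0.43, adjusted p = 0.0181) and with array weights (0.33, adjusted p = 0.0436). Over all 21 alternatives it ran from 0.0037 to 0.43, with limma adjusted p up to 0.994. No alternative turned its sign, but its size in whole ganglia was not firm, and at the lower end there was next to no difference. The difference between the ganglion differences was itself tested in the joint fit, where 18.2% of 8309 probe sets were called: it was -0.82 for 95377_at (SE 0.221, limma adjusted p = 0.00985). Beside it, the interaction was called lower for 4 of 7 satellite glia markers, with a median of -0.64. Of 8 endothelial and mural markers, 3 were lower and 1 higher. Macrophage and lymphocyte markers gave 1 higher and 1 lower of 5, muscle and blood 1 lower of 4, and neurons 1 higher of 6. None of 5 fibroblast or 3 myelinating Schwann cell markers was called. The part of other cells in the Fgf11 value was not tested.

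Captured neurons held more signal of Fgf11 95377_at than whole ganglia, on the same array type, in both ganglia. In DRG the 5 captured samples (297 to 472) did not overlap the 5 whole samples (133 to 177), where 37.3% of probe sets showed no overlap. The log2 difference, captured minus whole, was 1.29 (SE 0.162, limma adjusted p = 4.25e-07), 2.44-fold, in a comparison that called 47.2% of probe sets. In NG it was 0.47 (SE 0.15, limma adjusted p = 0.0105), 1.38-fold, in a comparison that called 55.3%; without captured NG sample 007 it was 0.35 and no longer called (adjusted p = 0.0541). The signal of 95377_at thus stood, from high to low, in the order captured DRG, captured NG, whole NG and whole DRG, and captured NG and whole NG differed past the threshold. The other neighbours were the ganglion comparisons above, neither called in its own fit, although captured NG and captured DRG differed past the threshold in the joint fit. In such bulk samples, fewer cells of a type and less RNA per cell cannot be told apart, and neither can the effects of capture and of RNA amplification.

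The second Fgf11 probe set did not follow the first. Probe set 102574_at averaged 31.2 ± 12.0 in captured NG, 42.7 ± 9.61 in captured DRG, 43.2 ± 16.3 in whole NG and 37.6 ± 6.18 in whole DRG, close to the filter, and no difference was called between the ganglia (-0.38 in captured neurons, adjusted p = 0.307; 0.08 in whole ganglia, adjusted p = 0.842) or in the interaction (-0.46, limma adjusted p = 0.422). Its order of means was whole NG, captured DRG, whole DRG and captured NG, unlike that of 95377_at. Captured minus whole was -0.32 in NG (limma adjusted p = 0.278) and 0.14 in DRG (adjusted p = 0.702), neither called. Without whole NG sample 020 the NG value was -0.54 and was called lower (limma adjusted p = 0.0201). For Fgf12, 93654_at averaged 76.6 ± 19.5 in captured NG and 101 ± 17.5 in captured DRG (SD, n = 5 each), a log2 difference of -0.36 (limma adjusted p = 0.201). Whole ganglia gave 101 ± 19.3 in NG and 124 ± 29.2 in DRG (SD, n = 7 and 5), a difference of -0.26 (limma adjusted p = 0.207). For 93654_at, captured minus whole was -0.36 in NG (limma adjusted p = 0.068) and -0.26 in DRG (adjusted p = 0.242), neither called. The NG value was called lower without captured NG sample 014, whole NG sample 020 or whole NG sample 073 (limma adjusted p 0.0214 to 0.046). The Fgf12 probe sets that passed the filter were thus not called on either array type under the settings reported, with negative differences on both; the exceptions under other settings and for dim 1436432_at are given above. Fgf13 99893_at, built on the same source transcript as the Mouse430_2 probe sets, lay under the filter on all 22 arrays, with means of 10.7 in captured NG, 17.5 in captured DRG, 22.1 in whole NG and 25.9 in whole DRG. The Fgf14 probe set 99424_at did so too, with no array above 8.69.

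**Figure D4:**
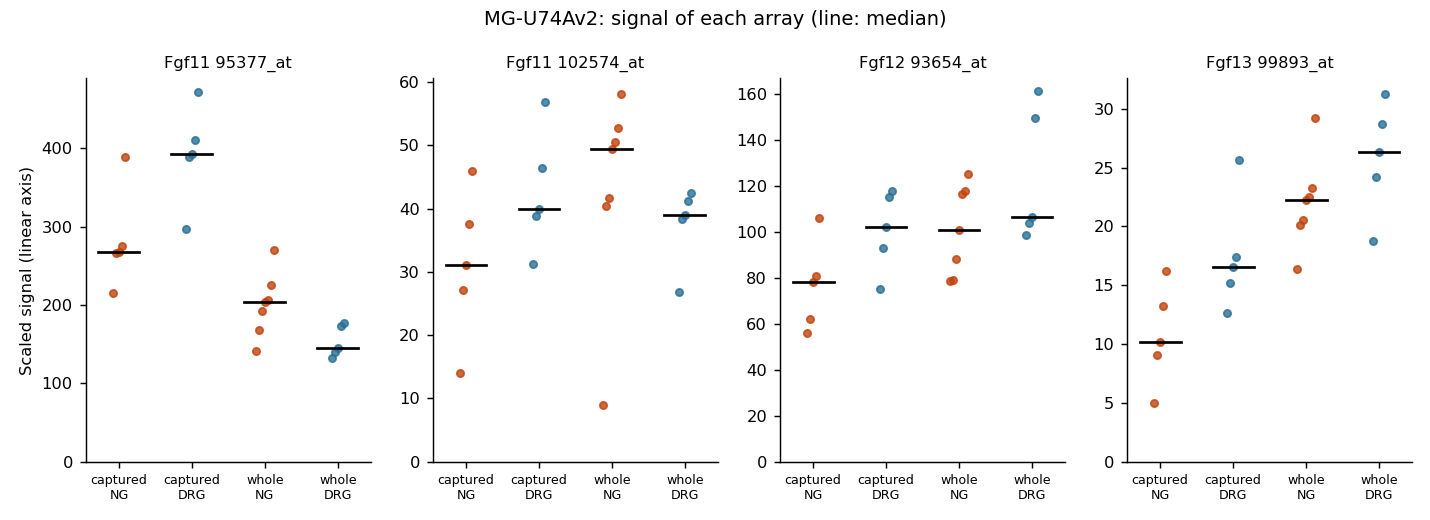
Scaled signal (linear axis from 0, a scale of its own in each panel) of 4 FGF homologous factor probe sets on MG-U74Av2, 1 point per array with a line at the median, for captured NG (n = 5), captured DRG (n = 5), whole NG (n = 7) and whole DRG (n = 5). Fgf11 95377_at is highest in captured DRG (297 to 472) and lowest in whole DRG (133 to 177); the Fgf12 groups overlap, and Fgf13 99893_at stays under the filter.

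The Mouse430_2 samples allowed a check across sample numbers, since 5 of the 11 NG and 5 of the 9 DRG numbers also occur among the captured samples on MG-U74Av2. Whether equal numbers mean the same RNA is not stated. Fitted apart, the samples with other numbers (n = 6 and 4) and those with shared numbers (n = 5 and 5) gave -3.84 and -3.77 for Scn4b, and 1.68 and 1.07 for Scn3b 1435767_at. For Scn2b 1430648_at they gave 1.096 and 1.57, all called in limma. Scn2b 1436134_at gave 0.95 (limma adjusted p = 0.00998) in the samples with other numbers and 0.47 (adjusted p = 0.068) in those with shared numbers, so it was not called there. The dim Scn3b probe set 1426328_a_at gave 1.21 (limma adjusted p = 0.0397) with other numbers and 0.92 (adjusted p = 0.228) with shared ones.

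**Figure D5:**
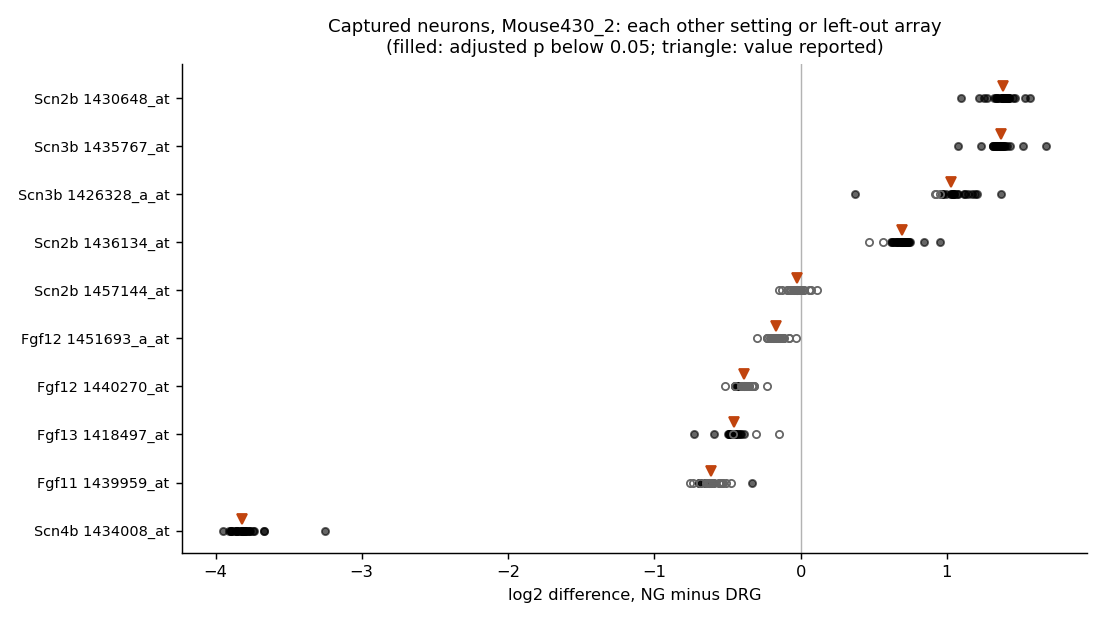
log2 difference, NG minus DRG, of the 10 tested member probe sets in captured neurons on Mouse430_2 under each other setting and with each array left out (filled, adjusted p below 0.05; open, not called; triangle, the value reported). Scn4b stays between -3.95 and -3.25 and is called throughout, as are Scn3b 1435767_at (1.07 to 1.68) and Scn2b 1430648_at (1.096 to 1.57).

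The rest of the sodium channel complex was read from 4 gene lists by the leading probe set of each gene, and over all 13973 genes tested on Mouse430_2 1810 were higher and 1906 lower in captured NG neurons (median -0.02). Of 8 alpha subunit genes tested, 1 was higher and 4 were lower (median -0.54). Scn1a, the Nav1.1 channel of fast-firing neurons, averaged 111 ± 60.4 in NG and 544 ± 326 in DRG (-2.18, limma adjusted p = 1.51e-05), and Scn7a, the sodium-sensing Nax, 1042 ± 296 in NG and 2926 ± 298 in DRG (-1.53, limma adjusted p = 1.33e-09). Scn2a was the higher one (0.68, limma adjusted p = 0.049). Of 12 adhesion and anchoring partners, 1 was higher and 3 were lower (median -0.09): contactin 1 (Cntn1, -1.65, limma adjusted p = 1.71e-09) and Nrcam (-1.06, adjusted p = 2.15e-07), cell adhesion molecules that bind beta subunits or the node, were lower, and L1cam (0.44, limma adjusted p = 0.000739) was higher.

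Among 13 kinases, ubiquitin ligases and other genes listed as partners, 4 were higher and 4 lower (median 0.04). The kinase Gsk3b, reported to regulate the binding of Fgf14 to the channel, was higher (0.84, limma adjusted p = 0.0173), as was the p38 kinase Mapk14 (0.81, adjusted p = 0.00162). The kinase Camk2d (-1.41, limma adjusted p = 0.000171) and the receptor phosphatase Ptprb (-1.1, adjusted p = 0.00252) were lower. Ptprz1, the other receptor phosphatase listed, was not called (0.27, limma adjusted p = 0.57). Whether Ptprb itself acts on these channels was not tested. Of 5 genes of the proteases that cut beta subunits, 1 was lower (median -0.16): Adam10, a sheddase of membrane proteins, averaged 300 ± 96.6 in NG and 678 ± 114 in DRG (-1.21, limma adjusted p = 8.02e-06). Bace1, the protease best known for cutting beta subunits, was not called (-0.16, limma adjusted p = 0.343).

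Of the genes of these lists called on Mouse430_2, 9 were also tested in captured neurons on MG-U74Av2, where some samples may be shared. The share of all genes that repeat in this way was not computed, so the count is a description only. Of the 9, 6 were called in the same direction and 3 were not called. Those 3 were Ank3 (-0.90 on Mouse430_2, 0.05 on MG-U74Av2 with limma adjusted p = 0.814), the casein kinase gene Csnk2a1 (0.61 and -0.0015, adjusted p = 0.996) and Mapk14 (0.81 and 0.17, limma adjusted p = 0.52). Scn1a averaged 24.8 ± 7.65 in NG and 757 ± 154 in DRG there (-4.46, limma adjusted p = 1.09e-09), and Scn8a, the Nav1.6 channel of nodes, was lower too (-1.1, adjusted p = 0.0155). Cntn1 (-1.55, limma adjusted p = 5.54e-05) and Nrcam (-1.23, adjusted p = 0.00537) were lower, as were the ubiquitin ligase Nedd4l (-1.09, adjusted p = 1.47e-05) and Adam10 (-1.01, adjusted p = 0.00292). The spectrin gene Sptbn1 was the 1 higher partner (0.34, limma adjusted p = 0.0254). By list, 0 were higher and 2 lower of 3 alpha subunits, 1 and 2 of 5 adhesion partners, 0 and 1 of 8 regulators, and 0 and 1 of 3 proteases, beside 634 and 689 of all 5784 genes tested.

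In whole ganglia the counts were 0 higher and 3 lower of 4 alpha subunits, 1 and 3 of 5 adhesion partners, 3 and 6 of 11 regulators, and 1 and 0 of 3 proteases, beside 1215 and 997 of all 5897 genes. The axonal anchor Ank3 (-0.999), Cntn1 (-0.95), Nedd4l (-0.94), the motor protein Kif5b (-0.80) and Scn10a, the Nav1.8 channel of nociceptors (-0.54), were lower in whole NG. Calm2, a calmodulin gene (0.68), Psen2 of the gamma-secretase (0.40) and Mapk14 (0.32) were higher (limma adjusted p at most 0.0257 for these 8). Nrcam was higher in whole NG (301 ± 46.6 in NG, 197 ± 28.9 in DRG; 0.58, limma adjusted p = 0.00157), the opposite of its direction in captured neurons, while Scn1a was lower there as well (-0.73, limma adjusted p = 0.00427). Scn10a was not called in captured neurons, neither on MG-U74Av2 (0.017, limma adjusted p = 0.928) nor on Mouse430_2 (-0.04, adjusted p = 0.89).

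By pattern over the 20 Mouse430_2 arrays, the genes most like Scn4b among 13972 compared were Kcna1, a Kv1 potassium channel subunit, then Ror2 and Zfp385b, at a mean absolute distance of 0.40, 0.42 and 0.42 on the centred log2 scale. Their own log2 differences were -3.23, -3.82 and -3.86. Those most like Scn3b were Urgcp, Pttg1ip and Mest, at 0.18, 0.19 and 0.19, with log2 differences of 1.19, 1.38 and 1.17. All 20 arrays were used for this measure, so the ganglion difference is part of it.

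Markers of the ganglia and of other cells moved with the comparison on Mouse430_2. All 3 tested markers of vagal neurons were higher in NG neurons (summed signal 4095 to 6707 in NG, 240 to 1111 in DRG), and all 4 tested ones of spinal neurons were lower (summed signal 28.2 to 325 in NG, 890 to 1608 in DRG). Each summed signal takes the brightest probe set of every listed gene on the array, tested or not. Neuron markers summed to 12830 to 17590 in NG and 15750 to 21070 in DRG, with 3 of 8 called higher and 3 lower. Prrxl1, 1 of the 3 lower, had the largest difference of that list (244 in NG, 2322 in DRG, -3.28, limma adjusted p = 1.81e-14). The sums hold that gene, so they are no plain measure of neuronal signal. Of 9 satellite glia markers, 5 were lower and 0 higher in NG (summed signal 5778 to 7837 in NG, 8273 to 11160 in DRG), while none of 3 myelinating Schwann cell markers was called (5043 to 6116 in NG, 5070 to 7067 in DRG). Of 8 endothelial and mural markers, Kdr (2.44) and Flt1 (1.38) were higher and Rgs5 (-2.94) and Acta2 (-0.81) lower in NG (summed signal 739 to 1437 in NG, 1317 to 2759 in DRG). Of 5 fibroblast markers, Dcn was lower (-1.85; summed signal 902 to 2244 in NG, 1668 to 4320 in DRG). H2-Aa (1.34), 1 of 3 tested markers of macrophages and lymphocytes, was higher in NG, as was Myl1 (1.63), 1 of 3 of muscle and blood. The summed signal of the macrophage and lymphocyte list was 552.6 to 1070 in NG and 459 to 824 in DRG. That of the muscle and blood list was 190 to 347 in NG and 98.2 to 228 in DRG. The limma adjusted p was at most 0.046 for these 7 genes of the lists of other cells. Signal of genes listed as markers of glia and of other cells was thus present in the captured samples of both ganglia. Which cells that signal came from, and its part in the member results, were not tested. On captured MG-U74Av2 samples, 4 of 7 satellite glia markers were lower in NG (summed signal 9252 to 10530 in NG, 10700 to 13130 in DRG). In whole ganglia 2 were higher and 1 lower (summed signal 12860 to 15480 in NG, 10560 to 13930 in DRG).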

How the data were processed

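Affymetrix array signal was measured in 42 samples. The deposited values are linear signal intensities of probe sets; the submitters' processing notes name MAS5, without a version, as the authors' tool. Gene names came from the platform annotation, and only probe sets with 1 symbol were used. The trimmed means of the arrays ran from 174.9 to 408.3 (whole ganglia), 187.7 to 274.5 (captured, MG-U74Av2) and 84.24 to 200.5 (captured, Mouse430_2). Each array was therefore scaled to a common mean, trimmed by 2% at each end, within its fit. The pseudocount was the 20th percentile of the fit's scaled values (12.3, 10.4, 7.48, and 11.4 in the joint fit), and fold differences on this scale understate those of dim genes. Fits used limma 3.58.1 (lmFit, then eBayes using its trend and robust options) under R 4.3.3, with the data.table package in version 1.17.8, were two-sided, and left out control probe sets; the code was tested on simulated data. The 3 experiments had separate fits; captured against whole and the interaction came from 1 fit of the 4 MG-U74Av2 groups. The number of arrays limits the precision. No arrays were identical. The members and gene lists were chosen with earlier results of these data known. By rule, all member probe sets are described, the brightest by mean log2 signal leads in each gene, up to 2 called genes per list and direction with the largest difference are named, and the 3 genes nearest in pattern are named for each gene whose leading probe set was called with a log2 difference of at least 1 in size, which Scn2b's was not. Bace1, Csnk2a1, Ank3 and Mapk14 on both array types, Ptprz1 and Scn10a in captured neurons, and the markers, are named beside this rule, after their values were seen. Alternatives were the pseudocount (1, 64), scaling (quantile, same median, none), no filter, array weights, plain eBayes, subsets of samples, sample number as a block, and leaving out each array. Sample descriptions call all samples laser captured; the extraction protocol, which names whole ganglia for the first experiment, was followed.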

Additional observations from a re-analysis of the deposited data

Results flagged for a closer look

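The ganglion difference of Fgf11 95377_at on MG-U74Av2 differed between captured neurons and whole ganglia, with an interaction of -0.8196 on the log2 scale (limma adjusted p = 0.00985). In 3 of the 37 sets of 4 to 10 samples examined for a sample far from its group, the lowest sample stood apart by Dixon's test at the 95% level, which chance does in about 1 of 20 sets. These were Fgf11 102574_at in whole NG sample 020, at a scaled signal of 9.451, the same probe set in whole DRG sample 070, at 28.16, and Fgf14 1435747_at in captured DRG sample 014 on Mouse430_2, at 6.308. The first 2 are on the scale of the whole-ganglion fit. Without whole NG sample 020, captured minus whole in NG was -0.54 for Fgf11 102574_at (limma adjusted p = 0.0201), against -0.32 (adjusted p = 0.278) with it.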

How the results depend on the processing

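Of 10 called member differences, 265 of 299 values under other settings kept direction and call and 34 lost the call with the same sign; of 15 uncalled ones, 368 of 396 values stayed so, 15 became called and 13 turned sign. The causes were not tested. Scn4b, Scn3b 1435767_at and Scn2b 1430648_at were called under all 31 alternatives. Member probe sets called higher on Mouse430_2 numbered 2 with no scaling and 2 in samples with shared numbers, against 4; those called lower numbered 1 with the same median and 1 with the replicate block, against 3. In whole ganglia, array weights called 1 higher (0 to 1 leaving out arrays, 1 without NG sample 020). In captured neurons on MG-U74Av2, 1 was called lower in the 4-group fit and 1 with array weights (0 to 1 leaving out arrays, 1 without DRG sample 008 or NG sample 007). Captured minus whole in NG gave 0 higher with no scaling (0 to 1 leaving out arrays, 0 without captured sample 007) and 1 lower with no filter (0 to 2 leaving out arrays, 2 without whole sample 020). The 1 lower with no filter was dim Fgf13 99893_at, otherwise not tested (mean 10.7 in captured NG, 22.1 in whole NG). The interaction gave 0 lower with no scaling (Fgf11 95377_at -0.54, adjusted p = 0.323). Scn2b 1436134_at lost its call with no scaling (0.56, adjusted p = 0.121), as did Scn3b 1426328_a_at (0.93, adjusted p = 0.0553), which could be tested in 23 of 31. The uncalled differences that turned sign were Fgf11 102574_at in whole ganglia (-0.196 with no scaling, -0.0257 with quantile normalization, -0.00945 with the same median, -0.00468 to 0.30 leaving out arrays) and in captured minus whole DRG (-0.101 with no scaling), Fgf12 93654_at in the interaction (0.177 with no scaling, 0.0132 with the same median) and Scn2b 1457144_at on Mouse430_2 (0.024 with shared numbers, 0.0728 with quantile normalization, 0.111 with the same median, -0.0872 to 0.0571 leaving out arrays). With the sample number as replicate block, Scn4b (-3.74), Scn3b 1435767_at (1.32) and Scn2b (1.38 and 0.66) stayed called, while Fgf13 1418497_at (-0.46, adjusted p = 0.0522), Fgf11 1439959_at (-0.75, adjusted p = 0.0997) and Scn3b 1426328_a_at (0.96, adjusted p = 0.0826) did not; same-numbered samples did not deviate together (r from -0.154 to 0.155 over 7 pairs on Mouse430_2 and from -0.106 to 0.111 over 4 pairs on MG-U74Av2, each number best with its own in 1 pair of each). Over all probe sets the block called 4039 against 6250 on Mouse430_2 and 1054 against 1652 in captured neurons on MG-U74Av2; no scaling called 4157, 1089 and, in the interaction, 662 against 1512. The share of calls that were higher in NG moved from 43.7% on Mouse430_2 to 63.5% with the same median and 24.4% with no scaling, in whole ganglia from 55.3% to 40% and 11.9%, in captured neurons on MG-U74Av2 from 47.9% to 35.4% with no scaling, and in the interaction from 42.4% to 59.9% and 69.3%; for captured over whole it moved in NG from 47.3% to 60.9% with the same median and in DRG from 48.5% to 17.9% with no scaling. The median of all differences moved on Mouse430_2 from -0.05 to 0.09 with the same median and -0.17 with no scaling. Dim probe sets, all 4 of Fgf14 on Mouse430_2 among them, are limited by signal over background.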
